A study of Mus musculus with 2 samples.

Results

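The transcription factors that direct and maintain photoreceptors were followed in single-cell RNA sequencing libraries of mouse retina at P30 (30 days of age). They are Crx, Otx2, Nrl, Nr2e3, Prdm1, Rorb, Thrb, Rxrg, Neurod1 and Mef2d, listed by name and not by any measured value, and all 10 were among the 25778 genes of the count table. The control library (Ptbp1-Ctrl) came from a mouse of genotype Chx10-Cre, and the mutant library (Ptbp1-KO) from a mouse of genotype Chx10-Cre;Ptbp1lox/lox. Both mice carried the Chx10-Cre transgene, which is active in retinal progenitors, and the floxed allele of the mutant has loxP sites around the promoter and first exon of Ptbp1, an RNA-binding regulator of splicing. The comparison asks what the absence of Ptbp1 from the progenitors leaves different in the mature retina. Each genotype had 1 library from 1 mouse, so no difference between genotypes has a replicate check, no test between genotypes was run, and every interval below covers counting error only.

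Levels are given as CPM, the unique molecular identifiers (UMIs, counts of captured molecules) of a gene per 1000000 UMIs summed over the cells of a type in a library, with exact 95% Poisson intervals. The 16421 Ptbp1-Ctrl cells held 32758836 UMIs and the 14522 Ptbp1-KO cells held 35328593. Rods numbered 10058 in Ptbp1-Ctrl and 9301 in Ptbp1-KO, cones 632 and 439, and bipolar cells (BC) 3194 and 2549. Median depth was 1088 and 1288 UMIs per rod, 2659.5 and 3179 per cone, and 2777 and 3818 per BC, so cells of Ptbp1-KO were deeper in all 3 types. Equal depth was therefore set by thinning every cell to 1000 UMIs and leaving out shallower cells, which were 4155 and 3126 rods, 43 and 14 cones, and 125 and 42 BC. Cell types are those named in the deposited cell table, and the summed level of each type's marker list was highest in that type in both libraries. The sum of rod markers in rods was 1.65 and 1.24 times that in cells named retinal ganglion cells, which are left out of the orders below together with the 17 and 7 horizontal cells. Rods held 255 UMIs of Ptbp1 itself in the control and 4 in the mutant, and the whole libraries held 825 and 14. The methods describe both mice as female, whereas Xist had 5 and 6 UMIs and the Y-linked Uty 6164 and 7085. The libraries shared 63 cell barcodes, 0.434% of those of Ptbp1-KO.

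Photoreceptor fate is built in layers. Otx2 and then Crx, related homeodomain activators, open and drive the photoreceptor programme, and Prdm1 keeps the young cells from turning into BC. Nrl, with its target Nr2e3, makes a photoreceptor a rod and holds cone genes down, while the nuclear receptors Thrb and Rxrg pattern cone opsins. Rorb, a nuclear receptor upstream of Nrl, and the more general activators Neurod1 and Mef2d act beside them. Several of these factors are also used outside photoreceptors, Otx2 in BC among them.

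The promoter windows of all 10 members were read from RefSeq (GRCm38.p6, the assembly also named mm10) as the 250 bases before each annotated start, 16 windows in all, and searched on both strands for 4 short motifs. TAATCC, the homeodomain core bound by Crx and Otx2, was found in 3 of the 16 windows (Crx, Otx2 and Thrb), against 6.25% of all 32851 promoter windows. AGGTCA, the nuclear receptor core, was found in 2 of the 16 (Rxrg and Thrb), against 14.0% of all windows. CAGATG, an E-box, was found in 2 (Nrl and Otx2), against 14.4%. TGCTGA, part of the site of Maf-type factors such as Nrl, was found in 4 (Otx2, Rorb, Neurod1 and Mef2d), against 16.1%. No motif overlapped another in these windows, and a match is a description of letters, not of binding. The windows below belong to the 4 members whose levels in rods differed past the fold defined below, and to Crx as the member with 2 copies of TAATCC, at positions -94 and -21 from the start. They are printed 5′ to 3′ in the direction of transcription, and capitals mark a motif on either strand, so that GGATTA is TAATCC on the other strand. All 5 genes lie on the minus strand, with the Crx window at chr7:15879956-15880205, Otx2 at chr14:48665110-48665359 (the one of its 4 windows with TAATCC), Nrl at chr14:55524253-55524502, Nr2e3 at chr9:59950080-59950329 and Prdm1 at chr10:44458749-44458998.
Crx: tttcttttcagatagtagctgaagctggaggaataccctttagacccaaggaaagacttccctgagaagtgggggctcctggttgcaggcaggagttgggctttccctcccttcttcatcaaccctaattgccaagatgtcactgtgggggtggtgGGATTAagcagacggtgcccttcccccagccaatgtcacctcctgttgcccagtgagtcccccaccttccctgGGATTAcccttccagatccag
Otx2: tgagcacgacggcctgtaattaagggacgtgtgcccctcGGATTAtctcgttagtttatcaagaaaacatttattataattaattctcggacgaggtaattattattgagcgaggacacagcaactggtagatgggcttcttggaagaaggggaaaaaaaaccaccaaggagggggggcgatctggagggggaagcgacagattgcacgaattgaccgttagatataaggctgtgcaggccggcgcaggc
Nrl: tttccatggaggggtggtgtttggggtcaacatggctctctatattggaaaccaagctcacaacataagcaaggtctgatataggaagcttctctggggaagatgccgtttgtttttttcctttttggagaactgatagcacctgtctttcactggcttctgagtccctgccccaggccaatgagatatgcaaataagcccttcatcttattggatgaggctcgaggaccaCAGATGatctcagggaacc
Nr2e3: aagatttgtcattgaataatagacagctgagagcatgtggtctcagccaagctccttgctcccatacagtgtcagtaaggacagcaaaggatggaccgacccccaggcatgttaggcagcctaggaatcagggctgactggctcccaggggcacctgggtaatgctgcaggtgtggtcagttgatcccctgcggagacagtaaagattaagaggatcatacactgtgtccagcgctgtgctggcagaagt
Prdm1: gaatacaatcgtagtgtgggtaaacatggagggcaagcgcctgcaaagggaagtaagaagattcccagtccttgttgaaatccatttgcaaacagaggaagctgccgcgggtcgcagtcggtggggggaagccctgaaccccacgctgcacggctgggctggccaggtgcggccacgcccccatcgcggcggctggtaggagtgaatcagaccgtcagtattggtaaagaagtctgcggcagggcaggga
The Nrl window carried its E-box at position -19, and the Nr2e3 and Prdm1 windows held none of the 4 motifs.

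Rods held the highest level of Crx, Nrl and Nr2e3, cones that of Prdm1, Thrb, Rxrg, Neurod1 and Mef2d, BC that of Otx2, and Müller glia (MG) that of Rorb, in both libraries, though Crx in Ptbp1-KO overlapped between rods and cones. The orders compare 1 gene across rods, cones, BC, amacrine cells (AC) and MG, and nothing is compared between genes.

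**Figure D1:**
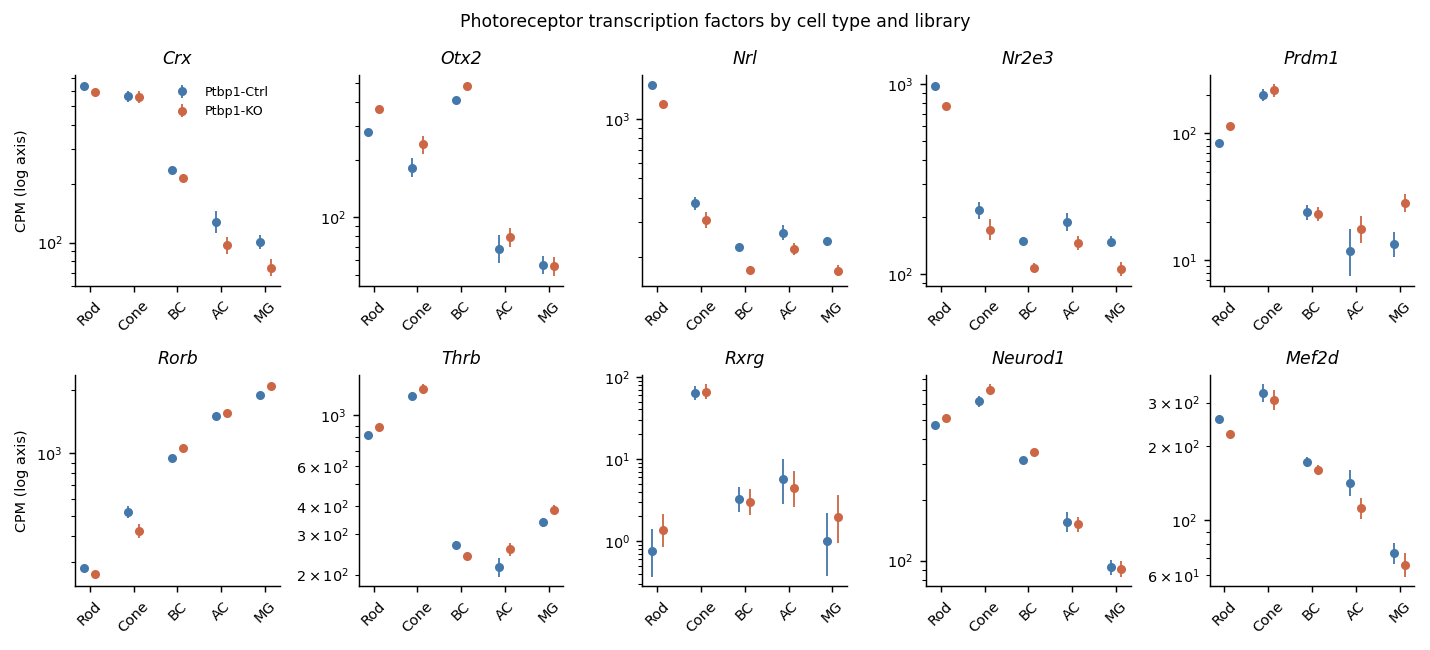
Level of each transcription factor in CPM (log axis, a separate scale in each panel) in rods, cones, BC, AC and MG, with 1 point per library and bars for the exact 95% Poisson interval, which covers counting error only. Rxrg stands far above its other levels in cones (64.2 and 65.9 CPM), and Rorb climbs from rods to MG in both libraries.

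Otx2 (chr14:48657677-48673819, minus strand, GENCODE M21 on mm10) was measured at 408 CPM (395 to 421) in Ptbp1-Ctrl BC and 482 (469 to 496) in Ptbp1-KO BC. In rods it was 279 CPM (270 to 289) and 366 (356 to 376), and in cones 182 CPM (162 to 203) and 240 (215 to 267). Within each library the order BC, rods, cones held with intervals apart, and BC exceeded rods 1.46-fold (1.40 to 1.53) in Ptbp1-Ctrl and 1.32-fold (1.27 to 1.37) in Ptbp1-KO. Crx (chr7:15865947-15879968, minus strand), the activator of most rod and cone genes, was at 634 CPM (620 to 647) and 591 (579 to 604) in rods, 561 (526 to 597) and 554 (516 to 594) in cones, and 236 (227 to 246) and 214 (205 to 223) in BC. Rods and cones overlapped for Crx in Ptbp1-KO and were apart, by 1.13-fold (1.06 to 1.21), in Ptbp1-Ctrl.

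Nrl (chr14:55518978-55524981, minus strand), the leucine zipper factor that rods require, was at 1481 CPM (1460 to 1502) and 1185 (1167 to 1203) in rods. In cones it was at 375 CPM (347 to 405) and 309 (281 to 339), and in BC at 224 (214 to 233) and 173 (165 to 181). Nr2e3 (chr9:59942771-59960659, minus strand), an orphan nuclear receptor that represses cone genes in rods, was at 983 CPM (966 to 999.7) and 765 (751 to 779) in rods, 218 (196 to 241) and 172 (151 to 195) in cones, and 150.1 (142 to 158) and 109 (102 to 115) in BC. The rod level of Nrl was 3.95 and 3.84 times that of cones, its second type, and that of Nr2e3 4.51 and 4.45 times, with cones and AC overlapping for Nr2e3. Below cones, the levels of Nrl in AC, MG and BC also overlapped between neighbours in at least 1 library. Prdm1 (chr10:44437177-44528501, minus strand), a zinc finger repressor of photoreceptor precursors, was at 202 CPM (181 to 224) and 218 (195 to 244) in cones and at 83.7 (78.8 to 88.8) and 114 (109 to 120) in rods, a cone excess of 2.41-fold (2.13 to 2.72) in Ptbp1-Ctrl and 1.91-fold (1.69 to 2.16) in Ptbp1-KO. In BC it was at 23.8 CPM (20.8 to 27.1) and 23.3 (20.5 to 26.5).

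Thrb (chr14:17660261-18038090, plus strand), the thyroid hormone receptor whose cone form turns on M opsin, was at 1217 CPM (1165 to 1269) and 1303 (1245 to 1364) in cones. Rods held 821 CPM (805 to 837) and 892 (876 to 907), so cones exceeded rods only 1.48-fold (1.41 to 1.55) and 1.46-fold (1.39 to 1.53). The table gives gene totals, in which the cone form cannot be told from other forms, and a gene annotated on the opposite strand, Gm48321, lies wholly within Thrb over 90772 bases; whether the counting used strand is not given in the sources used here. Rxrg (chr1:167598384-167639623, plus strand), the retinoid X receptor that works with Thrb in cones, had 112 and 94 UMIs in cones, or 64.2 CPM (52.8 to 77.2) and 65.9 (53.3 to 80.7). In rods it had 10 and 20 UMIs, or 0.767 CPM (0.368 to 1.41) and 1.38 (0.843 to 2.13). Cones exceeded rods 83.7-fold (43.8 to 179) in Ptbp1-Ctrl and 47.8-fold (29.3 to 81.8) in Ptbp1-KO. Rxrg thus had the widest cone to rod ratio of the members, and Thrb was abundant in both photoreceptor types.

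Rorb (chr19:18930605-19111196, minus strand) was at 281 CPM (272 to 290.0) and 264 (256 to 273) in rods, 521 (488 to 556) and 424 (391 to 460) in cones, 945 (925 to 964) and 1059 (1039 to 1079) in BC, 1504 (1450 to 1559) and 1550 (1511 to 1590) in AC, and 1902 (1867 to 1938) and 2092 (2052 to 2132) in MG. Its order ran opposite to that of Crx, with the intervals of neighbouring types apart in both libraries. Neurod1 (chr2:79452521-79456751, minus strand), a basic helix-loop-helix activator that photoreceptors need for survival, was at 618 CPM (581 to 656) and 704 (661 to 749) in cones, 469 (457 to 481) and 510 (499 to 522) in rods, and 315 (304 to 327) and 345 (334 to 356) in BC. Mef2d (chr3:88142372-88172086, plus strand), a MADS-box factor recruited with Crx to photoreceptor genes, was at 327 CPM (301 to 355) and 307 (279 to 337) in cones, 257 (248 to 266) and 224 (217 to 232) in rods, and 172 (164 to 180.1) and 160 (153 to 168) in BC. Both followed the order cones, rods, BC, AC, MG in both libraries, with intervals of neighbours apart.

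At 1000 UMIs per cell, 70.3% (69.2 to 71.5, exact Clopper-Pearson interval) of Ptbp1-Ctrl rods and 59.7% (58.5 to 61.0) of Ptbp1-KO rods held a Nrl UMI, against 16.2% and 13.5% of MG, which should lack the gene. Without thinning these shares were 64.6% and 59.7% of rods and 36.2% and 33.9% of MG, whose median depths were 3333 and 4178 UMIs. Otx2 was found in 24.1% (23.0 to 25.2) and 29.1% (28.0 to 30.3) of thinned rods, 16.0% (13.1 to 19.2) and 20.9% (17.2 to 25.1) of cones, 32.7% (31.0 to 34.4) and 37.1% (35.2 to 39.0) of BC, and 4.93% and 4.94% of MG. Prdm1 was found in 6.57% (5.95 to 7.24) and 9.68% (8.96 to 10.4) of thinned rods, 18.3% and 21.6% of cones, and 1.5% and 2.81% of MG. Rxrg was found in 6.11% (4.32 to 8.36) and 7.29% (5.01 to 10.2) of thinned cones and in 0.0847% and 0.146% of rods. Even the most restricted cone factor was thus caught in a minority of cones at this depth.

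Rods are the most numerous cells of the retina, and in droplet data free RNA of abundant cells can be counted in other cells. The 7 rod markers, among them Gnat1, Pde6a, Pde6b, Sag, Gngt1 and Cnga1, were present in BC at 14.0% to 23.1% of their rod level in Ptbp1-Ctrl and at 12.4% to 22.8% in Ptbp1-KO. Nrl stood in BC at 15.1% and 14.6% of its rod level and Nr2e3 at 15.3% and 14.2%, inside that range, so their BC values are read as background. Otx2 (146% and 132%), Rorb (337% and 401%), Neurod1 (67.3% and 67.5%), Mef2d (66.8% and 71.5%), Crx (37.3% and 36.2%) and Thrb (32.8% and 27.0%) stood above it in both libraries. Prdm1 was above the range in Ptbp1-Ctrl (28.4%) and within it in Ptbp1-KO (20.5%).
In cones the rod markers ran from 22.9% to 59.1% and from 20.8% to 66.1% of their rod level. Nrl (25.3% and 26.0%) was within the range, and Nr2e3 (22.2% and 22.5%) was just below it in Ptbp1-Ctrl and within it in Ptbp1-KO, so neither is read as expressed in cones. Otx2 in cones (65.0% and 65.6%) was above the range in Ptbp1-Ctrl and within it in Ptbp1-KO. The top of that range was set by Gngt1 (59.1% and 66.1%) and Sag, while the other 5 rod markers lay between 20.8% and 28.5%. The remaining members were above it in both.

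**Figure D2:**
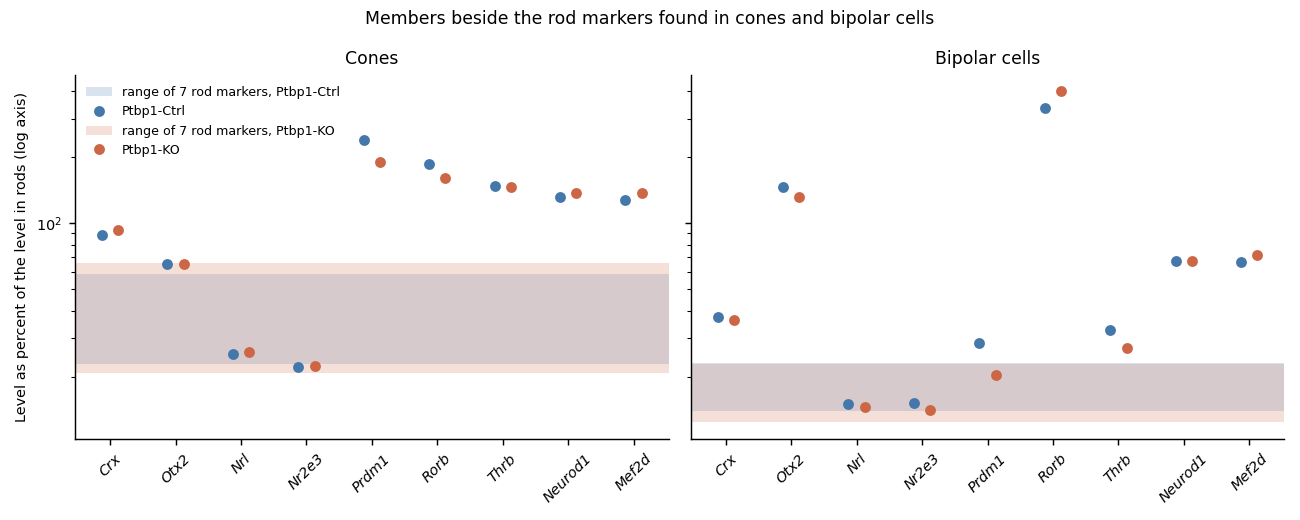
Level in cones (left) and BC (right) as a percent of the level of the same gene in rods (log axis), with 1 point per member and library and a shaded band for the lowest to the highest of 7 rod markers in each library. Rxrg is left out because its rod level rests on 10 and 20 UMIs. Nrl and Nr2e3 lie in or at the edge of the bands in both cell types.

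Between the libraries, a gene counts as past the fold where log2 of the Ptbp1-KO over the Ptbp1-Ctrl CPM is at least 0.25 in size with its exact conditional binomial interval on that side of 0. Only genes with a mean of at least 10 CPM and at least 50 UMIs over both libraries were read. In rods 9 members passed this filter, all except Rxrg, and 2 were higher in Ptbp1-KO (Otx2, Prdm1) and 2 lower (Nrl, Nr2e3). Of all 8877 genes read in rods, 12.9% were higher and 6.06% lower by the same rule, and with TMM scaling, which assumes that most genes are equal, the split was 7.24% and 13.5%. The study singled out these 4 members on the same cells, so their values here are not independent evidence of a direction. For rods the paper reports increases of Nrl and Nr2e3 and reductions of Otx2 and Prdm1, which are the opposite signs. The directions given here are those of the deposited counts, Ptbp1-KO over Ptbp1-Ctrl, and the reason for the difference was not tested. The median log2 ratio of the 9 members was -0.09, beside 0.03 for all genes.

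The log2 ratio of Otx2 in rods was 0.39 (0.33 to 0.45), and that of Prdm1 was 0.45 (0.34 to 0.56). Those of Nrl and Nr2e3 were -0.32 (-0.35 to -0.29) and -0.36 (-0.40 to -0.33). With every rod at 1000 UMIs Otx2 was at 284 and 364 CPM, Prdm1 at 72.2 and 115, Nrl at 1616 and 1179, and Nr2e3 at 1050.5 and 778, and the ratios were 0.36 for Otx2, 0.67 for Prdm1, -0.46 for Nrl and -0.43 for Nr2e3, past the fold in the same directions. Thinning left out shallower rods and so weighted the rod clusters described below differently. Their median depths ran from 884 to 1431 UMIs in Ptbp1-Ctrl. The part of this weighting in the thinned ratios was not tested. Mef2d was at -0.20 (-0.27 to -0.13), and of the alternatives run only TMM scaling put it past the fold, at -0.29. Crx (-0.10), Rorb (-0.09), Thrb (0.12) and Neurod1 (0.12) lay nearer to 0, with intervals that left out 0, although TMM scaling put Thrb at 0.02 and Neurod1 at 0.03, with intervals that held 0. Otx2 and Prdm1 thus lay above 0 and Nrl and Nr2e3 below it.

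**Figure D3:**
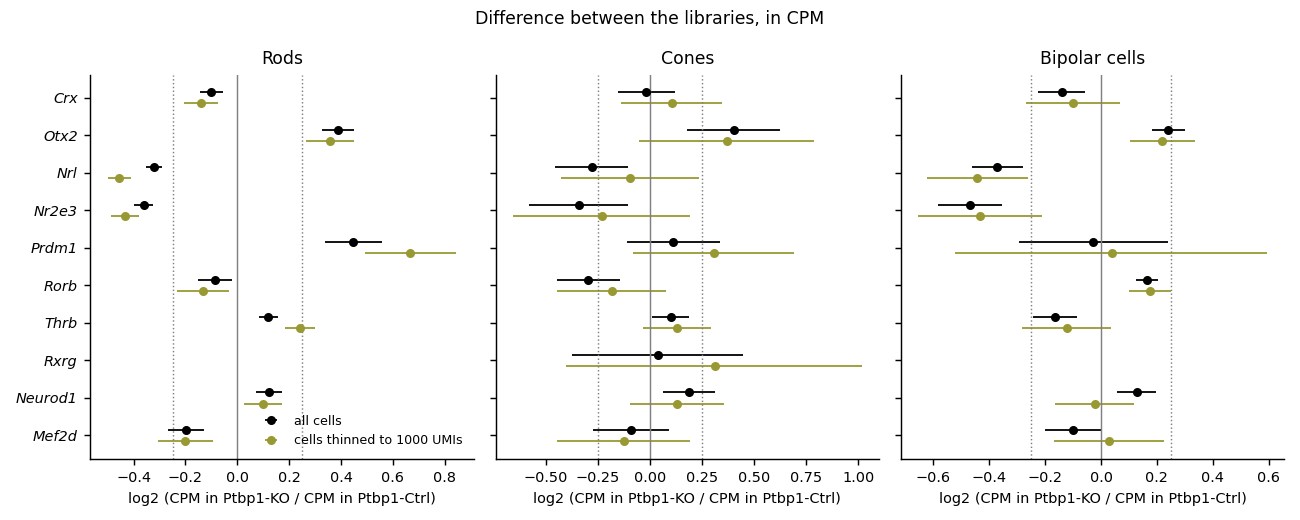
Log2 ratio of CPM in Ptbp1-KO over Ptbp1-Ctrl for the members read in rods, cones and BC, over all cells (black) and with each cell thinned to 1000 UMIs (olive), with bars for the exact 95% interval (counting error only) and dotted lines at 0.25 and -0.25. In rods Otx2 and Prdm1 lie right of the dotted line and Nrl and Nr2e3 left of it at both depths, and the horizontal scale differs between panels.

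The deposited table divides the rods into clusters 0, 1, 2 and 3, which were built on expression in these cells, so differences among them are a description. The summed rod markers of these clusters were at 29524, 35773, 48981 and 82443 CPM in Ptbp1-Ctrl, and Nrl followed them at 716, 815, 1490 and 2989 CPM. Thrb (1143, 1023, 750.4 and 290.5 CPM), Prdm1 (112, 108, 77.7 and 33.0) and Otx2 (314, 301, 291 and 203) ran the other way, and Crx stayed between 584 and 683. Cluster 3, the richest in rod markers, gave 24.7% of the rod UMIs of the control and 17.1% of those of the mutant, and cluster 0, the poorest, gave 39.0% and 48.6%. A sum over all rods therefore weights the clusters differently in the libraries.
Within clusters 0 to 3, the log2 ratio of Nrl was -0.17, -0.47, -0.14 and -0.11, and that of Nr2e3 was -0.34, -0.66, -0.24 and -0.25. Otx2 was at 0.42, 0.34, 0.25 and 0.20 and Prdm1 at 0.37, 0.60, 0.25 and 0.09. When both libraries were given the same makeup of clusters, a choice made after seeing the data, the ratio of Nrl shrank from -0.32 to -0.15, which is under the fold, and that of Thrb from 0.12 to 0.02. Nr2e3 (-0.30), Otx2 (0.34) and Prdm1 (0.35) stayed past it. Nrl was lower in Ptbp1-KO within each of the 4 clusters, but its size over all rods depends on their makeup.

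**Figure D4:**
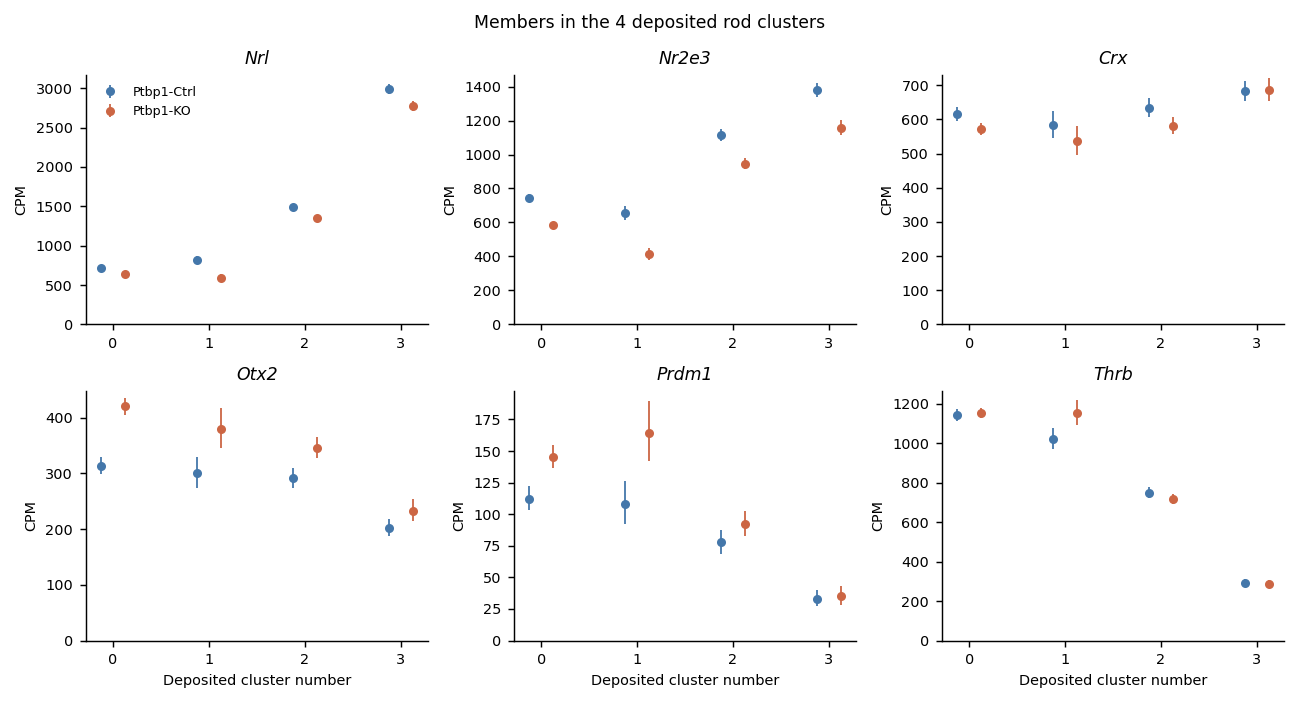
Level in CPM of 6 members in the 4 deposited rod clusters, with 1 point per library and bars for the exact 95% Poisson interval (counting error only). Nrl climbs from 716 CPM in cluster 0 to 2989 in cluster 3 of Ptbp1-Ctrl while Thrb drops from 1143 to 290.5, and Nr2e3 is lower and Otx2 higher in Ptbp1-KO in each cluster.

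In cones all 10 members were read, with 1 higher in Ptbp1-KO (Otx2) and 3 lower (Nrl, Nr2e3, Rorb), beside 6.16% and 6.14% of 7968 genes. Otx2 was at 0.40 (0.18 to 0.63), Rorb at -0.30 (-0.45 to -0.15), Nr2e3 at -0.34 (-0.58 to -0.11) and Nrl at -0.28 (-0.46 to -0.10) on the log2 scale. Nrl and Nr2e3 in cones are read as background, as described above. When the profile of the whole library was subtracted, at an estimated 8.55% and 6.91% of cone UMIs, all 10 members were still read. Otx2 was then higher and Nr2e3 and Rorb lower past the fold, so this subtraction did not take Nr2e3 out of cones. The median ratio of the 10 members was 0.01, beside -0.01 for all genes. With cones thinned to 1000 UMIs no member was past the fold with its interval, and Otx2 was at 0.37 (-0.05 to 0.79) and Rorb at -0.18 (-0.45 to 0.08). Among cones of 1000 to 2500 UMIs, 232 and 138 cells, Rorb turned to 0.11, Otx2 was at 0.65, and Neurod1 (-0.68) and Mef2d (-0.57) were lower past the fold. Prdm1, Thrb and Otx2 were higher past the fold there, where 12.9% of all genes were higher and 18.2% lower. Over all cones the cone factors themselves were close to 0, Thrb at 0.10 (0.01 to 0.19) and Rxrg at 0.04 (-0.37 to 0.45), an interval too wide to show that Rxrg is equal. Crx was at -0.02 (-0.15 to 0.12), and at 0.11 with thinned cones, Prdm1 at 0.11, Neurod1 at 0.19 and Mef2d at -0.09, all over 1 deposited cluster.

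In BC 9 members were read, none was higher past the fold and 2 were lower, Nrl at -0.37 (-0.46 to -0.28) and Nr2e3 at -0.47 (-0.58 to -0.35), beside 7.41% higher and 5.71% lower of 9750 genes. The median ratio of the 9 members was -0.10, beside 0.01 for all genes. Nrl and Nr2e3 are read as background there, and the summed rod markers of BC also differed, at 7963 CPM in Ptbp1-Ctrl and 6971 in Ptbp1-KO; their part in the result was not tested beyond the subtraction that follows. When the profile of the whole library was subtracted, at an estimated 28.4% and 25.3% of BC UMIs, Nrl turned to 0.59 and Nr2e3 moved to -0.10. These are ratios of what the subtraction left, and no interval covers the error of the estimated shares. Among the members above background, Otx2 was at 0.24 (0.18 to 0.30), just under the fold, Rorb at 0.16 (0.12 to 0.20) and Neurod1 at 0.13 (0.06 to 0.20). Crx was at -0.14 (-0.23 to -0.06), Thrb at -0.16 (-0.24 to -0.08) and Mef2d at -0.10 (-0.20 to -0.00). With BC thinned to 1000 UMIs Otx2 was at 0.22 and Rorb at 0.17, while Neurod1 turned to -0.02 and Mef2d to 0.03, and with the sums thinned to the smallest Mef2d was at -0.35, past the fold. Otx2 was thus past the fold in rods over all cells and with cells thinned, in cones over all cells but not with cells thinned, and in BC in neither. In MG, where it is near background, it was at -0.02 (-0.26 to 0.21).

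The deposited table divides BC into 10 clusters. Otx2 ranged from 310.3 to 559 CPM across them in Ptbp1-Ctrl and from 336 to 641 in Ptbp1-KO, and was higher in Ptbp1-KO in 9 of the 10, with log2 ratios from -0.00 in cluster 21 to 0.40 in cluster 18. Rorb was higher in all 10, from 0.06 to 0.33. Crx was lower in 7 of 10 and Thrb in 8 of 10. Thrb varied most widely of these, from 90.7 CPM in cluster 19 to 709 in cluster 21 of Ptbp1-Ctrl, with 685 in cluster 13. Cluster 21, with 118 and 81 cells, carried cone markers at a summed 17491 and 18391 CPM against 2699 and 2873 for BC markers, which goes against its name. It held Rxrg at 37.4 and 33.2 CPM and Prdm1 at 118 and 119 CPM. Without it BC Rxrg was at 0.767 and 1.24 CPM in place of 3.27 and 3.03, Prdm1 at 16.9 and 17.7 CPM, and the ratio of Otx2 at 0.25. Most of the Rxrg counted in BC therefore lay in cells with cone markers.

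**Figure D5:**
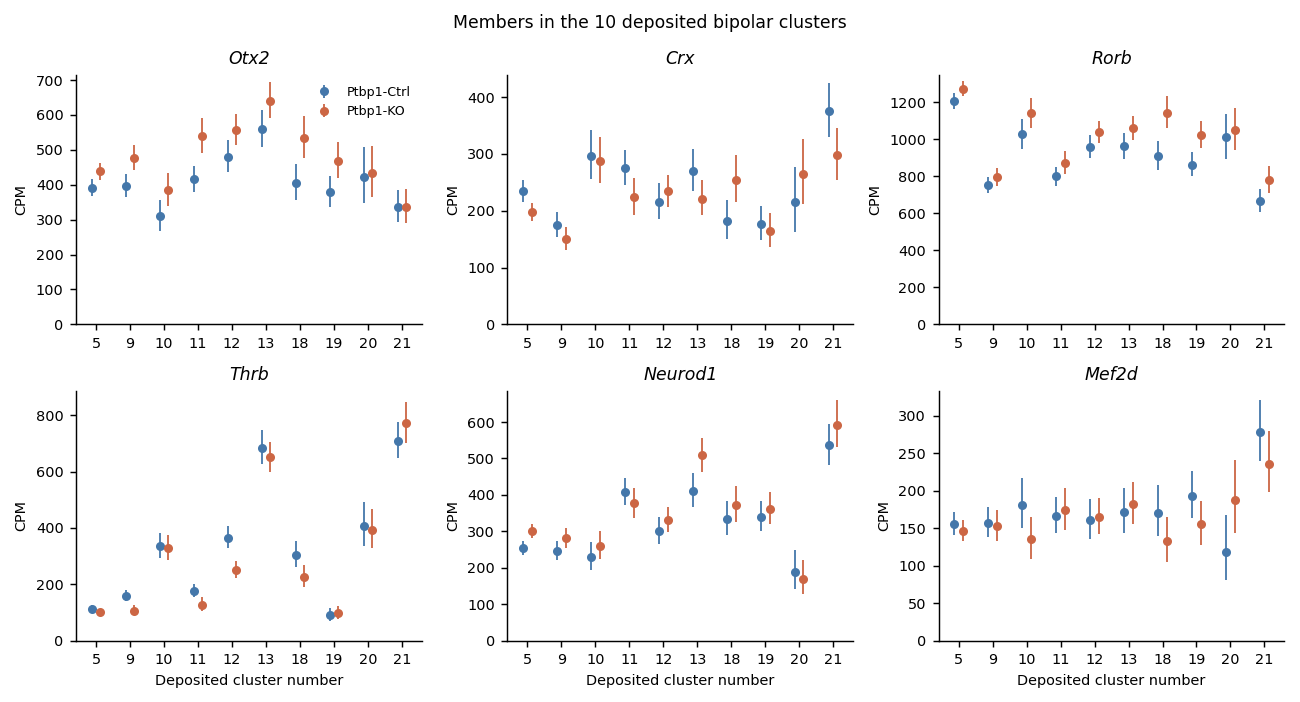
Level in CPM of 6 members in the 10 deposited BC clusters, with 1 point per library and bars for the exact 95% Poisson interval (counting error only). Thrb is highest in clusters 13 and 21, and Rorb is higher in Ptbp1-KO in each cluster.

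The neighbours on the opposite strand were measured beside their partners. Otx2os1 (chr14:48668708-48870683, plus strand) overlaps Otx2 over 5112 bases and was at 912 and 1351 CPM in rods, a log2 ratio of 0.57 (0.53 to 0.60). In cones it was at 941 and 1179 CPM, a ratio of 0.33 (0.23 to 0.42), and in BC at 2683 and 2918 CPM, a ratio of 0.12 (0.10 to 0.15). Reads in the overlap could count for either gene if strand was not used, so neither is independent of the other. Crxos (chr7:15882617-15904020, plus strand) lies 2648 bases from Crx and was at 567 and 471 CPM in rods, a log2 ratio of -0.27 (-0.31 to -0.22), 870 and 880 CPM in cones, a ratio of 0.02 (-0.09 to 0.13), and 147 and 98.8 CPM in BC, a ratio of -0.57 (-0.69 to -0.45).

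Over the 21 deposited clusters of at least 50 cells, the genes whose pattern was most like each member were found by Pearson correlation of log2(CPM + 10) among 4384 genes, as a description over clusters that share libraries and free RNA. The genes most like Nrl included Gnat1 (0.997) and Reep6 (0.991), and those most like Nr2e3 were Gnb1 (0.994), Pde6a (0.988) and Guca1b (0.985), all genes of rod outer segments or rod membranes. Rxrg was most like the cone genes Pde6c (0.931), Pde6h (0.923) and Opn1mw (0.911). Otx2 was most like Cacna2d4 (0.969), a calcium channel subunit of photoreceptor and BC synapses, then Otx2os1 (0.932) and Plk5 (0.925). Prdm1 was most like Crxos (0.963), Gm32442 (0.955) and Hk2 (0.941), and Crx most like Crocc (0.945), a component of the ciliary rootlet, Glcci1 (0.932) and Wdtc1 (0.931). Thrb was most like Gm48321 (0.957), which overlaps it, followed by Ralgps2 (0.905) and Rgs20 (0.865). Neurod1 was most like Rd3 (0.944), Stx3 (0.924) and Hsbp1l1 (0.908), Mef2d most like Madd (0.907), Smim13 (0.888) and Sv2b (0.879), and Rorb most like Ptprs (0.947), Lncpint (0.940) and Tmtc2 (0.934).

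A list of 25 relatives and cofactors of the members was read by the same rule. In rods 17 were read, of which 3 were higher in Ptbp1-KO, among them Samd7 (0.34), a repressor of cone genes in rods, and Nr2f6 (0.32). None was lower, and the median was 0.07, where 12.9% of all genes were higher and 6.06% lower. With TMM scaling 1 was higher and 1 lower, beside 7.24% and 13.5% of all genes. In cones 13 were read, with Mef2c, a relative of Mef2d, higher (0.56) and Samd7 lower (-0.35), and a median of -0.17. Of all genes read in cones 6.16% were higher and 6.14% lower. In BC 22 were read, with Neurod2 (0.66) and Mef2c (0.30) higher and Esrrb (-0.28), Casz1 (-0.35), Sall3 (-0.40) and Pias3 (-0.50) lower, and a median of 0.01. Of all genes read in BC 7.41% were higher and 5.71% lower. Mef2c in rods, at 754 and 888 CPM and a ratio of 0.24 (0.20 to 0.28), was just under the fold.
Genes that the members are known to drive were read the same way, some of them named by the study from these cells, and the signs are those of the deposited counts, Ptbp1-KO over Ptbp1-Ctrl. The paper gives the opposite direction for several of them, among them Pde6g in rods and Pde6c and Arr3 in cones. The reason for this difference was not tested. Of 20 rod genes none was higher and 2 were lower past the fold, where 12.9% of all genes were higher and 6.06% lower. The 2 were Pde6g, the inhibitory subunit of the rod phosphodiesterase, at 4659 and 3548 CPM (-0.39) and Cabp4, a synaptic calcium-binding protein, at 294 and 237 CPM (-0.31). The median of the 20 was -0.13, and the highest ratio was 0.04 for Abca4. With rods thinned to 1000 UMIs, and also with TMM scaling, 9 of the 20 were lower, with a median of -0.22 in each case, where 8.94% and 13.5% of all genes were lower. Gnat1, the rod transducin subunit, was at 5362 and 5395 CPM (0.01). Of 14 cone genes in the table none was higher and 2 were lower, Pde6c (-0.34), the cone phosphodiesterase, and Kcne2 (-0.31), a potassium channel subunit. Of all genes read in cones 6.16% were higher and 6.14% lower. Arr3, cone arrestin, was at 7101 and 8371 CPM (0.24), just under the fold. With cones thinned to 1000 UMIs 1 cone gene was higher and 2 were lower, beside 5.44% and 6.08% of all genes. With TMM scaling none was higher and 3 were lower, beside 5.06% and 7.97%.

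In MG the control held 79 UMIs of Prdm1 and the mutant 144, or 13.4 CPM (10.6 to 16.7) and 28.3 (23.9 to 33.3). The log2 ratio was 1.08 (0.68 to 1.5). As a percent of the rod level Prdm1 in MG was 16.0% in Ptbp1-Ctrl, within the 14.4% to 18.0% of the rod markers, and 24.8% in Ptbp1-KO, above their 12.1% to 16.6%. Over the same cells Nrl (-0.50), Nr2e3 (-0.48) and Crx (-0.44) were lower in Ptbp1-KO, at 12.6% to 16.3% of their rod levels, within the range of the rod markers in each library. Among cells named retinal ganglion cells, which carry rod markers, Otx2 had 17 and 41 UMIs, a ratio of 1.48 (0.64 to 2.39), and Neurod1 41 and 67 UMIs, a ratio of 0.92 (0.34 to 1.52).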

How the data were processed

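Retinas were dissociated with papain and captured with the 10x Genomics 3′ version 3.1 kit. Per the labels and methods, the authors used Cell Ranger 7.0.1 with the mouse genome mm10 and filtered, clustered and named the cells in Seurat (version 4 per the labels). Intron, strand and annotation settings are not given in the sources used here. The deposited table holds raw UMI counts per gene and cell, 25778 genes in 30943 cells, not normalized, and the deposited cell table gives the percent of mitochondrial UMIs, the cluster and the cell type of each cell. A further 2 columns of per-cell values were not used.

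Samples were grouped by the genotype in their labels. UMIs were summed per library and cell type and expressed as CPM, with exact Poisson, conditional binomial and Clopper-Pearson intervals at 95% (Python 3.11.15, scipy 1.17.1). With 1 library per genotype no count test was run. The calculation was tested on simulated data. No doublet caller was run; an alternative leaves out the 5% of cells with most UMIs of other classes' markers. TMM factors came from edgeR 4.0.16. Other alternatives were thinning to 1000 UMIs, cells of 1000 to 2500 UMIs, thinning of sums to the smallest (1425527 UMIs), subtraction of the library profile, a minimum of 50 CPM and a log2 threshold of 0.5. The text names the 10 members, Ptbp1 and sex genes as checks, the opposite-strand neighbours, list genes past the fold or at a list's extremes, and the 3 most alike genes per member. A few list genes outside this rule (Gnat1 and Mef2c in rods) were named after their values were seen, and values of some list genes are not reported here. The members and lists were chosen with earlier results of these data known. Gene positions are from GENCODE M21 and promoter sequences from RefSeq GRCm38.p6.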

Additional observations from a re-analysis of the deposited data

How the results depend on the processing

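In rods, the counts of members higher and lower stayed at 2 and 2 under the alternatives run, except that TMM scaling gave 3 lower and a log2 threshold of 0.5 gave 0 higher and 0 lower; the same makeup of clusters, given above, was run for ratios only and left Nrl under the fold. That threshold also gave 0 higher and 0 lower in cones and 0 lower in BC, since it lies above every ratio. With cells thinned to 1000 UMIs cones had 0 higher and 0 lower, and BC kept 2 lower. Among cells of 1000 to 2500 UMIs cones had 3 higher (Prdm1, Thrb, Otx2) and 2 lower (Neurod1, Mef2d), where 12.9% and 18.2% of all genes passed, Rorb reversed to 0.11, and BC had 1 lower (Neurod1), where 15.7% of all genes were lower. With sums thinned to the smallest cones had 2 lower (without Rorb) and BC 3 lower (with Mef2d). With the library profile subtracted cones had 2 lower (without Nrl), and BC had 1 higher (Nrl, reversed to 0.59) and 1 lower (Thrb). Intervals after subtraction leave out the error of the estimated share, so the reversed Nrl is a remainder of uncertain size. The cause of these moves was not tested. Leaving out the cells with most UMIs of other classes moved none of the 30 ratios beyond its interval. With the same makeup of clusters 3 of 20 ratios moved, those of Nrl, Nr2e3 and Thrb in rods. The relatives list in BC had 2 lower in place of 4 with thinned cells. No paired analysis was possible because each genotype has 1 library. Depth limits Rxrg, with 112 and 94 UMIs in cones, and the thinned cones, of which 589 and 425 were left. The animal, dissociation and library cannot be told apart from the genotype.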
